A study of Mus musculus with 110 samples.

Results

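Inguinal white adipose tissue (iWAT), the subcutaneous fat depot of the mouse groin, was compared between mice fed a methionine-restricted diet and mice fed the control diet, all kept in the cold for the last 24 h. The comparison uses the iWAT libraries of 6 cold-exposed mice on methionine restriction (MetR_CE) and 7 cold-exposed control mice (Ctrl_CE), which are 13 of the 110 RNA-seq libraries of the series, and the 26428 of 56884 genes that reached 10 counts in total over all iWAT libraries. All animals were male C57BL/6N mice from Taconic, housed singly and killed at 16 weeks of age, and each library came from a different mouse. Both diets lacked cysteine. The control diet held 0.86% methionine per the labels and the restricted diet 0.12%. Each diet was fed for 7 days at 22 °C, and the cold groups then spent another day at 4 °C on the same diet. The corresponding groups that stayed at 22 °C (Ctrl_RT and MetR_RT, 7 iWAT libraries each) and the cold-exposed interscapular brown (iBAT) and epididymal white (eWAT) fat served only to show where the diet response of cold iWAT differed. One MetR_CE mouse has no iWAT library because it was lost in preparation.

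Methionine is an essential amino acid that the cell needs for protein synthesis and for S-adenosylmethionine, the donor of most methyl groups. Without dietary cysteine it is also the only dietary source of sulfur for cysteine and glutathione. Cells sense a shortage of amino acids through the kinase GCN2 and the transcription factor ATF4, the integrated stress response (ISR), whose targets include amino acid transporters, asparagine synthetase and the hormone FGF21. Inguinal fat is known for beiging: in the cold, white adipocytes of this depot turn on uncoupling protein 1 (UCP1) and a mitochondrial program that burns fuel for heat. The question here is what the restricted diet still changes in a depot that cold has already activated.

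The Ctrl_CE libraries held 17423585 to 26317976 counts (median 20405810) and the MetR_CE libraries 21326784 to 33141066 (median 27782035). Values below are normalized CPM, read counts scaled to a common library size with the factors of the trimmed mean of M-values. Adipocyte markers were abundant in every cold library, with a summed level of 16100 to 24100 CPM in Ctrl_CE and 22600 to 24700 CPM in MetR_CE. Some libraries stood apart. Ctrl_CE 5 held 826 CPM of 7 hair follicle keratin and keratin-associated genes, against at most 0.681 CPM in each MetR_CE library. Ctrl_CE 7 had the highest sum of macrophage markers of all cold libraries, at 1090 CPM. Skeletal muscle markers summed to 41.4, 238 and 1380 CPM (lowest, median and highest) in Ctrl_CE and to 58.5, 1080 and 4880 CPM in MetR_CE. Since these are bulk samples, fewer cells of a type and less RNA per cell cannot be told apart.

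A gene was called a differentially expressed gene (DEG) when edgeR's quasi-likelihood test gave a Benjamini-Hochberg adjusted p below 0.05 and the change was at least 1.5-fold. All adjusted p-values below come from that test across all genes. In the cold, 599 genes (2.27% of those tested) differed between the diets: 189 were higher (0.715%) and 410 lower (1.55%) in MetR_CE. Among the 13673 genes with a mean of at least 1 CPM in the cold libraries, 152 (1.11%) were higher and 336 (2.46%) lower. The counts of called genes in each gene list below are to be read against these shares. A single call in a list says little about the list. The MetR_CE and Ctrl_CE libraries did not overlap for 82 of the 189 higher DEGs and 71 of the 410 lower ones, and over all genes tested they did not overlap in the higher direction for 1.07% and in the lower for 0.662%. The median log2 fold change over all genes was 0.0. At an adjusted p below 0.05 with any fold 890 genes (3.37%) differed, and 18.9% of genes had an unadjusted p below 0.05.

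These counts depended on single libraries. With each library left out in turn, between 0.217% and 0.919% of the genes tested were higher and between 78 and 590 genes lower, and 113 of the 599 DEGs (48 higher, 65 lower) were called in all 13 of these fits. Both lowest values came without MetR_CE 4. The higher count changed by more than 1.5 times without Ctrl_CE 1 (115), Ctrl_CE 5 (125), Ctrl_CE 6 (101), Ctrl_CE 7 (94), MetR_CE 3 (103), MetR_CE 4 (57) or MetR_CE 5 (79). The lower count did so without Ctrl_CE 1 (250), Ctrl_CE 5 (165), Ctrl_CE 6 (183), Ctrl_CE 7 (112), MetR_CE 1 (213), MetR_CE 3 (137), MetR_CE 4 (78), MetR_CE 5 (121) or MetR_CE 6 (152). Without both Ctrl_CE 5 and Ctrl_CE 7, 34 genes were higher and 18 lower. Genes that were called in each of the 13 fits are therefore marked as such below. They also depended on the shrinkage of fold changes. With DESeq2 and apeglm, which the study used, 11 genes named here that were called had a fold set to 0.00: Fosl2, Dapk1, Tubb6, Scd2, Mvd, Ccl8, Saa3, Csf1r, C3, Slc4a1 and Myh7, of which all but Myh7 had an adjusted p below 0.05 in DESeq2. This happened to 577 of the 1787 genes with such a p, with a median posterior SD of 0.00144, and it differed with the optimizer of apeglm, being 556 with nbinomC and 434 with nbinomR. With nbinomR the values were -3.79 for Ccl8, -4.45 for Saa3 and -0.66 for Fosl2, and those of Scd2 and Mvd stayed at 0.00.

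Several imprinted genes, which are expressed from only the maternal or only the paternal chromosome, were among the DEGs with the largest increases in cold MetR fat. Of 27 imprinted genes tested, 7 were higher and 0 lower in MetR_CE (Peg3, Zim1, Mest, Klf14, Nnat, Plagl1 and Blcap), and the list's median log2 fold change was 0.40 against 0.0 over all genes. The list was put together after these values had been seen, so its count describes only where the changes fell. Summed over the 27 genes, the level ran from 1660 to 2190 CPM in Ctrl_CE and from 2830 to 4240 CPM in MetR_CE.

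Peg3, a paternally expressed zinc-finger transcription factor, stood at 13, 20.5 and 42.7 CPM (lowest, median and highest) in Ctrl_CE and at 62, 98.3 and 164 CPM in MetR_CE. All 6 MetR_CE libraries lay above all 7 Ctrl_CE libraries. Its log2 fold change was 2.14 ± 0.317 (SE), with an adjusted p of 0.00156. Zim1 is an imprinted zinc-finger gene that lies 7352 bases from Peg3 on chromosome 7 (Zim1 chr7:6674444-6696540, Peg3 chr7:6703892-6730462, both on the minus strand, GRCm38.p6). It measured 0.731, 1.27 and 2.88 CPM in Ctrl_CE and 2.74, 6.32 and 11.7 CPM in MetR_CE. The lowest MetR_CE library fell just below the highest Ctrl_CE library, Ctrl_CE 4, and the others were above it. The log2 fold change of Zim1 was 2.21 ± 0.306 with an adjusted p of 0.000583, and both genes were called in each of the 13 leave-one-out fits.

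Mest, a paternally expressed gene whose level in fat is known to go with adipocyte enlargement, ranged over 2.99, 14.7 and 90.1 CPM in Ctrl_CE and 98.8, 307 and 408 CPM in MetR_CE. The groups did not overlap, although Ctrl_CE 3 came close with 90.1 CPM. The log2 fold change was 3.52 ± 0.799 with an adjusted p of 0.0184. Mest (chr6:30733506-30748466, plus strand) overlaps the end of Copg2 on the other strand, and the library kit did not mark strand, so reads from the overlap cannot be told apart. Klf14, a maternally expressed transcription factor on the same chromosome (chr6:30956021-30958990), measured 0.262, 1.07 and 2.15 CPM in Ctrl_CE and 3.72, 7.85 and 10.5 CPM in MetR_CE, again without overlap. On the log2 scale it differed by 2.63 ± 0.576 with an adjusted p of 0.0163. Mest and Klf14 were called in each of the 13 leave-one-out fits, but not when Ctrl_CE 5 and Ctrl_CE 7 were both left out (adjusted p = 0.0983 and 0.0657).

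Nnat encodes neuronatin, a small membrane protein of the endoplasmic reticulum, and measured 74.2, 79.7 and 131 CPM in Ctrl_CE and 287.5, 593 and 1340 CPM in MetR_CE. The groups were well apart. The log2 fold change was 2.89 ± 0.678 (adjusted p = 0.0214), and it was 2.56 without MetR_CE 4, where the call was lost (adjusted p = 0.0703), as it was without both Ctrl_CE 5 and Ctrl_CE 7 (adjusted p = 0.104). Nnat lies wholly inside the span of Blcap on the opposite strand (Nnat chr2:157560078-157562525, Blcap chr2:157556362-157566361), so the 2 counts are not independent where exons overlap. Blcap itself went from a median of 88.8 to 148 CPM (log2 fold change 0.68 ± 0.171, adjusted p = 0.0293), and its call was lost in 7 of the 13 fits, with the highest adjusted p of 0.074 without Ctrl_CE 7. Plagl1, a zinc-finger regulator of other imprinted genes, measured 9.33, 14 and 17.5 CPM in Ctrl_CE and 17, 28.3 and 36.3 CPM in MetR_CE. One MetR_CE library lay within the Ctrl_CE range. Its log2 fold change was 1.02 ± 0.22 with an adjusted p of 0.015. Plagl1 was called in each of the 13 leave-one-out fits, but the adjusted p was 0.0593 without both Ctrl_CE 5 and Ctrl_CE 7.

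The other 20 imprinted genes did not pass. Cdkn1c, a maternally expressed cell cycle inhibitor, had a log2 fold change of 0.57 ± 0.14 (adjusted p = 0.0261), just short of 1.5-fold. The H19 and Igf2 pair had values of 0.54 and 0.50 (adjusted p = 0.801 and 0.438). At the Dlk1 to Meg3 cluster the values were negative, with -0.60 for Dlk1, -0.84 for Meg3 and -0.94 for Rian, and adjusted p-values of 0.31, 0.127 and 0.118.

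**Figure D1:**
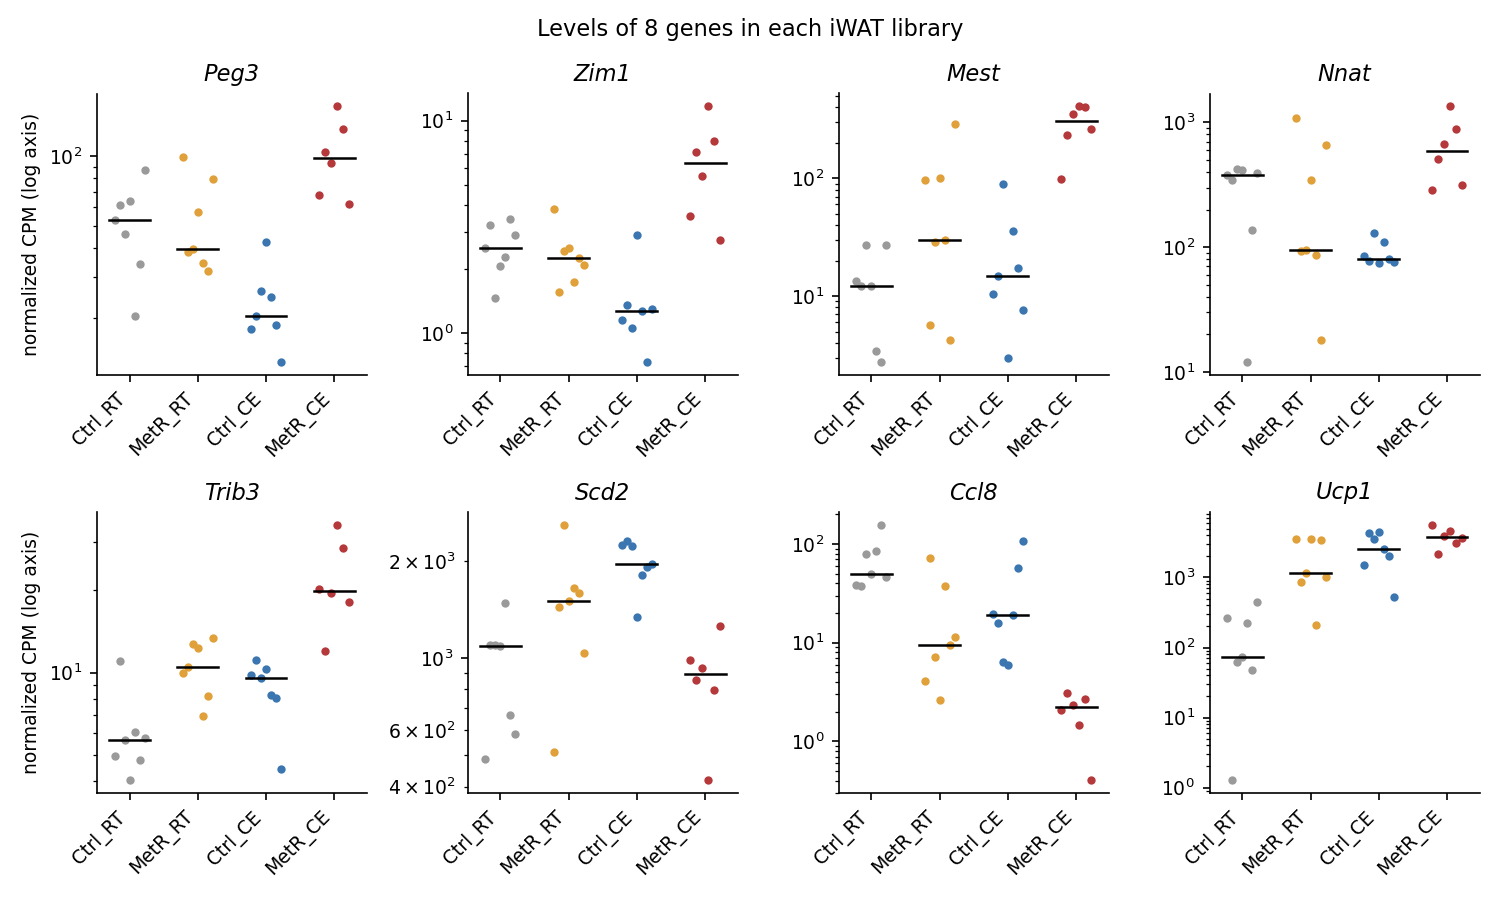
Normalized CPM (log axis) of 8 genes in each iWAT library of the 4 groups, 1 point per library, with the group median as a black line. Peg3, Mest and Nnat of MetR_CE lie above every Ctrl_CE library, Scd2 and Ccl8 of MetR_CE lie below every Ctrl_CE library, and the Ucp1 values of the cold groups overlap.

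Other leading increases covered regulators and enzymes with no common role. Ivns1abp, an influenza virus NS1A binding protein that also binds actin, had the smallest p of the higher genes. It measured 93, 112 and 204 CPM in Ctrl_CE and 232, 288.1 and 358 CPM in MetR_CE, with a log2 fold change of 1.23 ± 0.158 (adjusted p = 0.000348). Only Ctrl_CE 4, at 204 CPM, came near the MetR_CE range. Kctd15, a BTB-domain protein from a locus associated with obesity, went from 13.3, 16.2 and 20 CPM to 25.5, 33.3 and 36.2 CPM without overlap (0.95 ± 0.123, adjusted p = 0.000348). St6galnac5, a sialyltransferase that adds sialic acid to gangliosides, went from 6.9, 10.6 and 13.6 CPM to 14.4, 21.5 and 32.8 CPM, also without overlap (1.21 ± 0.187, adjusted p = 0.00181).

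The receptor gene Notch1, known for restraining beige adipocyte formation, had a median of 58.9 CPM (56.4 to 77.4) in Ctrl_CE and 106 CPM (70.9 to 140) in MetR_CE. The ranges overlapped at the lowest MetR_CE library. On the log2 scale it differed by 0.78 ± 0.133 with an adjusted p of 0.00439. Shroom3, an actin-binding protein of cell shape, had medians of 6.9 and 12.8 CPM without overlap (1.01 ± 0.173, adjusted p = 0.00442). Vnn1, a pantetheinase that splits pantetheine into pantothenic acid and cysteamine, measured 2.04, 4.39 and 12.2 CPM in Ctrl_CE and 12.5, 23 and 30.6 CPM in MetR_CE. All MetR_CE values exceeded all Ctrl_CE values, and the log2 fold change was 2.12 ± 0.417 (adjusted p = 0.0093). Ivns1abp, Kctd15, St6galnac5, Notch1, Shroom3 and Vnn1 were each called in all 13 leave-one-out fits.

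Cyb5r1, a cytochrome b5 reductase, and Tmem43, a protein of the inner nuclear membrane, were higher by about the threshold of 1.5-fold. Their log2 fold changes were 0.60 ± 0.101 (adjusted p = 0.00439) and 0.61 ± 0.106 (adjusted p = 0.0057), and neither gene's groups overlapped. The Cyb5r1 value dropped under 1.5-fold without Ctrl_CE 1 (0.58), Ctrl_CE 5 (0.58), MetR_CE 4 (0.52) or MetR_CE 6 (0.57), and that of Tmem43 without Ctrl_CE 2 (0.58) or MetR_CE 5 (0.56). Cacna1e, a voltage-gated calcium channel subunit, had low values of 0.0618, 0.311 and 0.515 CPM in Ctrl_CE and 0.524, 1.48 and 5.65 CPM in MetR_CE. The groups touched without overlapping. Its log2 fold change was 2.83 ± 0.632 (adjusted p = 0.0169) and 2.27 without MetR_CE 4 (adjusted p = 0.0724).

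Of the genes with the largest fold increases, Myh7 and Hspb7 are muscle genes. Myh7, the slow myosin heavy chain, was at 0 in 5 of the 7 Ctrl_CE libraries, with a highest value of 0.0562 CPM, and measured 0, 0.0806 and 14.8 CPM in MetR_CE. Hspb7, a small heat shock protein of heart and muscle, measured 0.247, 0.644 and 4.11 CPM in Ctrl_CE and 0.367, 6.84 and 20.2 CPM in MetR_CE (2.88 ± 0.82, adjusted p = 0.0488). The ranges overlapped for both, and the Myh7 values above 1 CPM came from MetR_CE 4 and MetR_CE 5. The calls were lost in 10 and 11 of the 13 leave-one-out fits, with the highest adjusted p-values of 0.114 for Myh7 without MetR_CE 4 and 0.134 for Hspb7 without MetR_CE 5. With the muscle marker level as a covariate their adjusted p-values were 0.0602 and 0.0943. All 10 skeletal muscle markers had positive log2 fold changes, from 0.70 to 2.24, and 0 were called. In that fit, chosen after the values were seen, 177 of the 189 higher and 393 of the 410 lower DEGs were called. Since the muscle marker level leaned to MetR_CE, the fit cannot separate muscle RNA from diet.

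The ISR list had a small positive median and few DEGs. Of 29 genes tested, 3 were higher (Trib3, Stbd1 and Fgf21) and 0 lower, with a median log2 fold change of 0.22. Positive values were found for 24 of the 29. Over all genes tested 0.715% were higher, and the median was 0.0. Trib3, a pseudokinase that ATF4 and CHOP induce, measured 4.45, 9.58 and 11.1 CPM in Ctrl_CE and 12, 19.9 and 34.8 CPM in MetR_CE. The groups did not overlap, and the log2 fold change was 1.34 ± 0.231 with an adjusted p of 0.00442. Stbd1, a glycogen-binding protein, went from 5.02, 6.31 and 8.62 CPM to 9.44, 10.9 and 17.8 CPM without overlap (0.83 ± 0.164, adjusted p = 0.0093). Both were called in each of the 13 leave-one-out fits.

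Fgf21, the fasting and amino acid stress hormone, measured 1.29, 3.03 and 4.51 CPM in Ctrl_CE and 2.39, 6.77 and 9.11 CPM in MetR_CE. The ranges overlapped. On the log2 scale it differed by 1.19 ± 0.331 with an adjusted p of 0.0445, and the call was lost in 9 of the 13 leave-one-out fits, with the highest adjusted p of 0.119 without MetR_CE 4. Chac1, a glutathione-degrading enzyme downstream of ATF4, had a larger spread, from 4.76 to 15.1 CPM in Ctrl_CE and from 8.18 to 23.3 CPM in MetR_CE (1.10 ± 0.408, adjusted p = 0.132). Asns, which makes asparagine, gave 0.15 ± 0.115 (adjusted p = 0.502). Sesn2, a leucine sensor that restrains mTORC1, gave 0.86 ± 0.253 (adjusted p = 0.0566).

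The promoters of 4 ISR genes are shown because their products span the range of response, from Trib3 and Fgf21, which were called, to Chac1 and Asns, which were not, and because each holds the letters to which C/EBP-ATF dimers such as ATF4 with C/EBP bind. The windows run from 250 bases before to 50 bases after the annotated RefSeq start in GRCm38.p6, each written along the strand of its gene. Capitals mark TGATGNAA on either strand, and in Asns also a match to the antioxidant response element TGACNNNGC. The first lies at offset 14 from the start in Trib3, -139 in Fgf21, -193 in Chac1 and -23 in Asns. The windows are chr2:152344011-152344310 (minus strand) for Trib3, chr7:45615441-45615740 (minus) for Fgf21, chr2:119350992-119351291 (plus) for Chac1 and chr6:7693160-7693459 (minus) for Asns.
Trib3: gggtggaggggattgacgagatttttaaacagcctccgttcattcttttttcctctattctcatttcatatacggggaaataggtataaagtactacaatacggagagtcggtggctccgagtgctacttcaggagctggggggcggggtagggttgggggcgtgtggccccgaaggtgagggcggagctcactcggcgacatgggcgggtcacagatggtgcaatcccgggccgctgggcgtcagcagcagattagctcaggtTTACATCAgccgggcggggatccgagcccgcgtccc
Fgf21: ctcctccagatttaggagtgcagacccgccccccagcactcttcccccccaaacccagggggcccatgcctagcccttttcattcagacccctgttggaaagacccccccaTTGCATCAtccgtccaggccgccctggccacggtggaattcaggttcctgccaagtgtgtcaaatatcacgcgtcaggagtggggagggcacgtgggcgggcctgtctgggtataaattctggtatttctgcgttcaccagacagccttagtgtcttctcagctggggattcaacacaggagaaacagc
Chac1: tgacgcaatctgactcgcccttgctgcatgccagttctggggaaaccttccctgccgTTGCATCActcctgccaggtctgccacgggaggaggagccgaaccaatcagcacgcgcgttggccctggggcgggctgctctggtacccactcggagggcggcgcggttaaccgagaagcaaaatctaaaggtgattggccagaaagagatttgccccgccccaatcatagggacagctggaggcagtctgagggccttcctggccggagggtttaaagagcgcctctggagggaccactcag
Asns: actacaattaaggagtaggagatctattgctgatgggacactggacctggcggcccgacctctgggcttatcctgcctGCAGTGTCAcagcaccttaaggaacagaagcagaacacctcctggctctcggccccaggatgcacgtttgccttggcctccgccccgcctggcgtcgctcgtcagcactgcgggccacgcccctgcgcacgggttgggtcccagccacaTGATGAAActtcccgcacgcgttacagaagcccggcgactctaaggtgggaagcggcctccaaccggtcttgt
Of the 23 ISR genes with a RefSeq window, 10 (43.5%) held TGATGNAA, against 4.51% of all 27025 genes with one. Among the DEGs, 2.31% of the higher genes with a window and 4.04% of the lower ones held it. A match describes letters and is not a binding site, and nothing follows from its absence in these windows.

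Genes of serine, one-carbon, methionine and glutathione metabolism showed few changes. In the list of the methionine cycle and transsulfuration, 0 of 29 genes passed (median 0.03), and 0 of 16 did so for serine synthesis and folate (median 0.01). The closest was Mat2a, the enzyme that makes S-adenosylmethionine outside the liver, at 166, 205 and 234 CPM in Ctrl_CE and 277.6, 294.8 and 348.5 CPM in MetR_CE. The groups did not overlap and the adjusted p was 0.00181, but the log2 fold change of 0.55 ± 0.0854 was below 1.5-fold. Phgdh, the first enzyme of serine synthesis, had a value of 0.48 ± 0.205 (adjusted p = 0.193), and Cth, which makes cysteine from cystathionine, one of 0.15 ± 0.194 (adjusted p = 0.734). Slc7a11, the cystine importer, was low in both groups and had a value of 0.08 ± 0.788 (adjusted p = 0.972). Nnmt, which consumes S-adenosylmethionine to methylate nicotinamide, gave 0.39 ± 0.253 (adjusted p = 0.431).

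Amino acid transporters were represented by a single DEG of 20, where 2.27% of all genes tested were called in either direction. Slc38a1, a sodium-coupled carrier of glutamine and other neutral amino acids, was lower in MetR_CE, at 0.605, 1.33 and 1.77 CPM against 2.04, 3.29 and 6.45 CPM in Ctrl_CE. The groups did not overlap, and the log2 fold change was -1.63 ± 0.291 (adjusted p = 0.00586). Slc38a1 was called in each of the 13 leave-one-out fits. In the NRF2 and glutathione list 0 of 26 genes passed (median -0.15), and in the list of endoplasmic reticulum chaperones 0 of 19 did (median -0.01).

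Most of the thermogenic genes that cold and diet each induce at this depot were not called between the cold groups. Ucp1 measured 530, 2550 and 4480 CPM in Ctrl_CE and 2170, 3770 and 5660 CPM in MetR_CE, and the ranges overlapped over most of their length. The log2 fold change was 0.50 ± 0.683 with an adjusted p of 0.754. Dio2, which activates thyroid hormone, Elovl3, a fatty acid elongase of brown fat, and Ppargc1a, a coactivator of mitochondrial genes, had values of 0.28 ± 0.476, 0.67 ± 0.575 and 0.21 ± 0.307 (adjusted p = 0.814, 0.579 and 0.773). With SEs of this size the missing calls do not show that the groups were alike. Of the 24 brown and beige adipocyte genes, 23 had a positive value, the median was 0.43, and 2 passed (Bmp8b and Fgf21). The share of higher genes among all tested was 0.715%.

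Bmp8b, a secreted factor that sensitises brown fat to noradrenaline, measured 0.0823, 0.393 and 2.19 CPM in Ctrl_CE and 1.78, 3.77 and 6.65 CPM in MetR_CE. The highest Ctrl_CE library exceeded 2 of the MetR_CE libraries. Its log2 fold change was 2.56 ± 0.681 (adjusted p = 0.0374), and the call was lost in 8 of the 13 leave-one-out fits, with the highest adjusted p of 0.097 without MetR_CE 4. Cox7a1, a respiratory chain subunit of brown fat and muscle, had medians of 34.2 and 90.1 CPM and a value of 1.35 ± 0.417 (adjusted p = 0.0673). It passed without Ctrl_CE 2 (adjusted p = 0.0416). With the muscle marker level as a covariate, a fit chosen after the values were seen, its value was 1.54 (adjusted p = 0.0351). The muscle marker sum itself had medians of 238 CPM in Ctrl_CE and 1080 CPM in MetR_CE. That fit therefore cannot separate muscle RNA from diet, and the part of muscle RNA in Cox7a1 was not tested.

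Fuel oxidation genes had small positive medians and almost no calls, where 0.715% of all genes tested were higher. For fatty acid oxidation 1 of 27 genes passed (median 0.39): Acot2, a mitochondrial acyl-CoA thioesterase, at 36.8, 72.2 and 117 CPM in Ctrl_CE and 83.3, 124 and 396 CPM in MetR_CE (1.15 ± 0.294, adjusted p = 0.0312). The ranges overlapped, and MetR_CE 4 held the value of 396 CPM. Without that library the log2 fold change was 0.69 (adjusted p = 0.145), and the call was lost in 6 of the 13 fits. None of 38 nuclear-encoded respiratory chain genes (median 0.19), 22 genes of the TCA cycle (median 0.21) and 20 of glycolysis and glucose uptake (median 0.06) passed. At an adjusted p below 0.05 but less than 1.5-fold, Idh2, a mitochondrial source of NADPH, was at 0.50 ± 0.098 (adjusted p = 0.0093), and the glucose transporter Slc2a1 was at 0.46 ± 0.103 (adjusted p = 0.0169).

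Among 20 adipokines and secreted hormones, 4 were higher and 0 lower (median 0.27), among them Sfrp5, Bmp8b and Fgf21. Sfrp5, a secreted WNT inhibitor, measured 7.27, 8.71 and 14.7 CPM in Ctrl_CE and 5.87, 31 and 50.8 CPM in MetR_CE. One MetR_CE library was below all control libraries and the others well above them. On the log2 scale it differed by 1.71 ± 0.344 with an adjusted p of 0.0111, and it was called in each of the 13 leave-one-out fits. Leptin (Lep) gave 0.58 ± 0.326 (adjusted p = 0.342) and adiponectin (Adipoq) 0.25 ± 0.149 (adjusted p = 0.384).

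Lipid synthesis genes lay on the lower side. In fatty acid synthesis, 17 of 18 genes had negative values (median -0.61) and 2 passed, Scd2 and Srebf1, where 1.55% of all genes tested were lower. Scd2, a stearoyl-CoA desaturase, measured 1340, 1960 and 2300 CPM in Ctrl_CE and 419, 896 and 1260 CPM in MetR_CE. Every MetR_CE library was below every Ctrl_CE library, and the log2 fold change was -1.17 ± 0.283 (adjusted p = 0.0249). The call was lost without MetR_CE 4 (-1.03, adjusted p = 0.074) or MetR_CE 5 (-1.15, adjusted p = 0.0593). Srebf1, the transcription factor of lipogenic genes, went from 1320, 1390 and 1760 CPM to 766, 1030 and 1200 CPM, also without overlap (-0.60 ± 0.16, adjusted p = 0.0376), and its call was lost in 9 of the 13 fits, with the highest adjusted p of 0.106 without MetR_CE 4.

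Acly, which makes cytosolic acetyl-CoA from citrate, measured 8870, 9750 and 12500 CPM in Ctrl_CE and 1250, 4730 and 6770 CPM in MetR_CE. Although the groups did not overlap, the test gave -1.18 ± 0.418 with an adjusted p of 0.112. It passed in a fit of the cold groups alone (adjusted p = 0.0312) and with DESeq2 (adjusted p = 0.0334). Fatty acid synthase (Fasn) ranged from 38600 to 53400 CPM in Ctrl_CE and from 12900 to 40900 CPM in MetR_CE (-0.61 ± 0.273, adjusted p = 0.218). Scd1, the main desaturase of adipocytes, gave -0.27 ± 0.266 (adjusted p = 0.637). In cholesterol synthesis and uptake, 22 of 24 genes were negative (median -0.50). Against 1.55% of all genes tested that were lower, 1 gene of this list passed. That gene was Mvd, the mevalonate diphosphate decarboxylase, at 33.4, 43 and 56.4 CPM in Ctrl_CE and 11.2, 16.7 and 22.7 CPM in MetR_CE without overlap (-1.36 ± 0.328, adjusted p = 0.0247). Its call was lost without MetR_CE 4 (-1.27, adjusted p = 0.0743) or MetR_CE 5 (-1.28, adjusted p = 0.0643).

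Among the lower DEGs with the smallest p were genes of immune cells and signalling. Lacc1, a macrophage enzyme of purine and polyamine metabolism, measured 16.8, 21.3 and 31.7 CPM in Ctrl_CE and 8.78, 11.3 and 12.6 CPM in MetR_CE, without overlap (-0.99 ± 0.151, adjusted p = 0.00181). Dapk1, a calcium-dependent kinase of cell death and autophagy, had medians of 100 and 62.1 CPM (-0.65 ± 0.115, adjusted p = 0.00586). Fosl2, an AP-1 transcription factor, had medians of 73.1 and 45.8 CPM (-0.69 ± 0.119, adjusted p = 0.00442) and was the only one of 20 AP-1 and immediate early genes to pass.

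Ly9, a receptor of lymphocytes and macrophages of the SLAM family, measured 1.92, 4.03 and 13.8 CPM in Ctrl_CE and 0.734, 1.14 and 1.82 CPM in MetR_CE. All MetR_CE values were below all control values, and the log2 fold change was -2.31 ± 0.392 (adjusted p = 0.00439). Ciita, the master activator of MHC class II genes, went from a median of 8.6 to 3.44 CPM without overlap (-1.14 ± 0.205, adjusted p = 0.00586). Arhgap9 and Arap1, regulators of small GTPases of which the first is mainly found in blood cells, had values of -1.43 ± 0.258 and -0.83 ± 0.15 (adjusted p = 0.00586 for both). Lacc1, Dapk1, Fosl2, Ly9, Ciita, Arhgap9 and Arap1 were each called in all 13 leave-one-out fits, but Dapk1 and Fosl2 were not called with DESeq2 and apeglm, which set their folds to 0.00. Tubb6, a beta-tubulin, had a value of -0.59 ± 0.105 (adjusted p = 0.00586), which dropped under 1.5-fold in 6 of the 13 fits, with the highest adjusted p of 0.0236 without MetR_CE 5.

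Markers of macrophages and the genes of their signals were lower in MetR_CE fat. Of 12 macrophage markers 6 passed, all lower (Adgre1, Mrc1, Cd68, Trem2, Csf1r and Fcgr1), and all 12 had negative values with a median of -1.13. Adgre1, which encodes the F4/80 antigen, measured 13.8, 28 and 71.1 CPM in Ctrl_CE and 6.92, 9.89 and 20.5 CPM in MetR_CE. The ranges overlapped only through MetR_CE 2, at 20.5 CPM. Its log2 fold change was -1.65 ± 0.348 (adjusted p = 0.0142). The mannose receptor Mrc1, a marker of resident macrophages, went from a median of 116 to 46.8 CPM (-1.37 ± 0.345, adjusted p = 0.0295), and its call was lost in 7 of the 13 fits, with the highest adjusted p of 0.087 without Ctrl_CE 7. Without Ctrl_CE 7, the library with the most macrophage RNA, 1 of the 12 markers passed, and without both Ctrl_CE 5 and Ctrl_CE 7 none did. The list's median stayed negative in both fits.

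Of 32 chemokines and receptors, 7 were lower and 0 higher (median -0.91), among them Ccl8, Ccr2, Cx3cr1, Ccr3, Ccl21a and Cxcl16. Ccl8, a monocyte chemoattractant made by resident macrophages, measured 5.97, 19.1 and 109 CPM in Ctrl_CE and 0.403, 2.21 and 3.09 CPM in MetR_CE. The groups did not overlap, and the log2 fold change was -4.05 ± 0.793 (adjusted p = 0.0093). Ccr2, the receptor that brings monocytes into tissue, went from 11.6, 30.8 and 46.9 CPM to 5.04, 9.09 and 15.2 CPM (-1.54 ± 0.327, adjusted p = 0.0146). Its ranges overlapped at MetR_CE 2. Ccl2, the ligand of Ccr2, was low in both groups and gave -0.83 ± 0.631 (adjusted p = 0.517). Of the 32 genes, 4 passed without Ctrl_CE 7 and 1 without both Ctrl_CE 5 and Ctrl_CE 7, where Ccr2 had an adjusted p of 0.111.

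Saa3, an acute phase protein of inflamed adipose tissue, was at 0.432, 6.26 and 22 CPM in Ctrl_CE and 0, 0.28 and 0.645 CPM in MetR_CE. The ranges overlapped only at the lowest control library. On the log2 scale it differed by -4.77 ± 0.99 (adjusted p = 0.013), and it was called in each of the 13 leave-one-out fits, as were Ccl8, Ccr2 and Adgre1. With DESeq2 and apeglm the folds of Saa3 and Ccl8 were set to 0.00. In the list of inflammatory cytokines and acute phase proteins, 2 of 20 genes passed, Saa3 and Csf1r (median -0.60).

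Of 15 antigen presentation genes 7 were lower, all of them in the MHC class II pathway (Ciita, H2-DMb1, H2-DMa, H2-Ab1, H2-Eb1, H2-Aa and Cd74). Of these 7, only Ciita and H2-DMb1 were called in each of the 13 leave-one-out fits. All 15 had negative values, with a median of -0.55. The class I gene H2-K1 had an adjusted p of 0.00586 but a value of -0.55 ± 0.0983, under 1.5-fold. MHC genes are polymorphic and alike, so reads may be shared among them. Complement genes followed with 6 of 17 lower (C1qa, C1qb, C1qc, C3, Cfp and C3ar1; median -0.80). C1qa, a chain of the complement initiator C1q that macrophages make, went from a median of 107 to 42.8 CPM with overlapping ranges (-1.46 ± 0.355, adjusted p = 0.0252). Its call was lost in 6 of the 13 fits, with the highest adjusted p of 0.076 without Ctrl_CE 7. Without Ctrl_CE 7 none of the complement genes and 2 of the antigen presentation genes passed. Interferon-stimulated genes had a median of -0.53 and 23 of 24 negative values, and 0 passed.

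The summed macrophage markers ran from 276.1 to 1090 CPM in Ctrl_CE (median 470) and from 190 to 469 CPM in MetR_CE (median 265.3). The 8 adipocyte markers summed to medians of 21400 and 23200 CPM, and the 8 endothelial markers to 806 and 938 CPM. T cell markers were low, with sums of 4.87 to 12.4 CPM in Ctrl_CE and 4.07 to 5.62 CPM in MetR_CE, and 0 of 10 passed. The part of cell composition in the immune results was not tested.

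**Figure D2:**
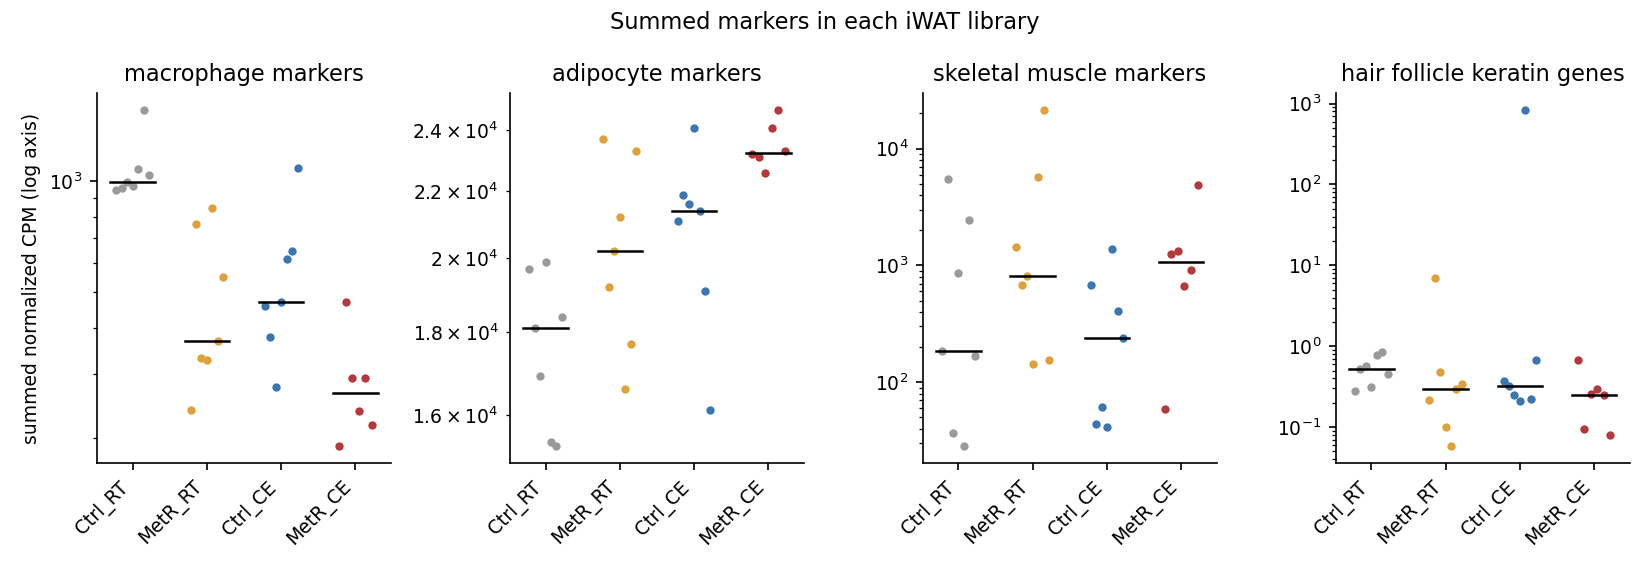
Summed normalized CPM (log axis) of macrophage, adipocyte and skeletal muscle markers and of hair follicle keratin genes in each iWAT library of the 4 groups, with the group median as a black line. In the cold the macrophage sums of MetR_CE lie between 190 and 469, and Ctrl_CE 5 stands apart with 826 CPM of hair follicle keratin genes.

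Several extracellular matrix genes were lower in MetR_CE. Of 30 collagens and matrix genes, 5 passed (Col3a1, Col1a1, Col1a2, Col6a3 and Lum), 25 had negative values and the median was -0.70. Col1a1, the main chain of collagen I, measured 198, 1170 and 3690 CPM in Ctrl_CE and 212, 290 and 382 CPM in MetR_CE. The control libraries spread widely, and the lowest of them lay below all MetR_CE libraries. Its log2 fold change was -2.18 ± 0.511 (adjusted p = 0.0214), and the call was lost without Ctrl_CE 7 (-1.69, adjusted p = 0.0645) or MetR_CE 4 (-2.20, adjusted p = 0.0566). Col3a1, the fibrillar collagen of soft tissue, had medians of 2210 and 590 CPM with overlapping ranges (-1.92 ± 0.426, adjusted p = 0.0168) and was called in each of the 13 leave-one-out fits. Without Ctrl_CE 7, 1 of the 30 genes passed, and without both Ctrl_CE 5 and Ctrl_CE 7 none did (Col3a1 -1.52, adjusted p = 0.103). The 10 markers of adipocyte progenitors and fibroblasts, the cells that make most of this matrix, had 9 negative values, a median of -0.60 and 0 calls. Their sum was 657.2, 1110 and 2080 CPM in Ctrl_CE (lowest, median and highest, the last in Ctrl_CE 7) and 569.3, 902.2 and 1270 CPM in MetR_CE, and the part of these cells in the matrix values was not tested.

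Smaller groups also lay lower. Of 10 markers of neutrophils, mast cells and eosinophils, 2 passed, the mast cell proteases Mcpt4 (-1.72 ± 0.436, adjusted p = 0.03) and Cma1 (-1.85 ± 0.488, adjusted p = 0.0356). Their calls were lost in 7 and 8 of the 13 fits, with the highest adjusted p-values of 0.0882 and 0.104, both without Ctrl_CE 7. Of 27 proliferation genes all had negative values (median -0.79) and 1 passed, the mitotic kinase Aurkb at -1.46 ± 0.38 (adjusted p = 0.0327). Among all genes tested 1.55% were lower, so this 1 call says little about the list. Of 6 red cell genes 3 passed. Slc4a1, the anion exchanger of the red cell membrane, was at 0.0823, 0.225 and 0.644 CPM in Ctrl_CE and at 0, 0 and 0.0887 CPM in MetR_CE (-3.51 ± 0.707, adjusted p = 0.0111). It was called in each of the 13 leave-one-out fits, while DESeq2 with apeglm set its fold to 0.00. The globin genes Hbb-bt and Hba-a1, whose reads may be shared with near-identical copies, had values of -1.13 and -0.88 (adjusted p = 0.0301 and 0.0487).

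The lower genes with the largest folds were hair genes. Krt25, Krt83, Prr9, Krt33a and Krt86, keratins and a keratinocyte protein of the hair follicle, were at 0 in all MetR_CE libraries and had a median of 0 in Ctrl_CE. The library Ctrl_CE 5 alone held 110, 25, 23.5, 23.4 and 17.7 CPM of them. All 5 calls were lost without that library, where Krt33a had a log2 fold change of -1.37 (adjusted p = 0.7) and the other 4 genes one of 0.00.

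**Figure D3:**
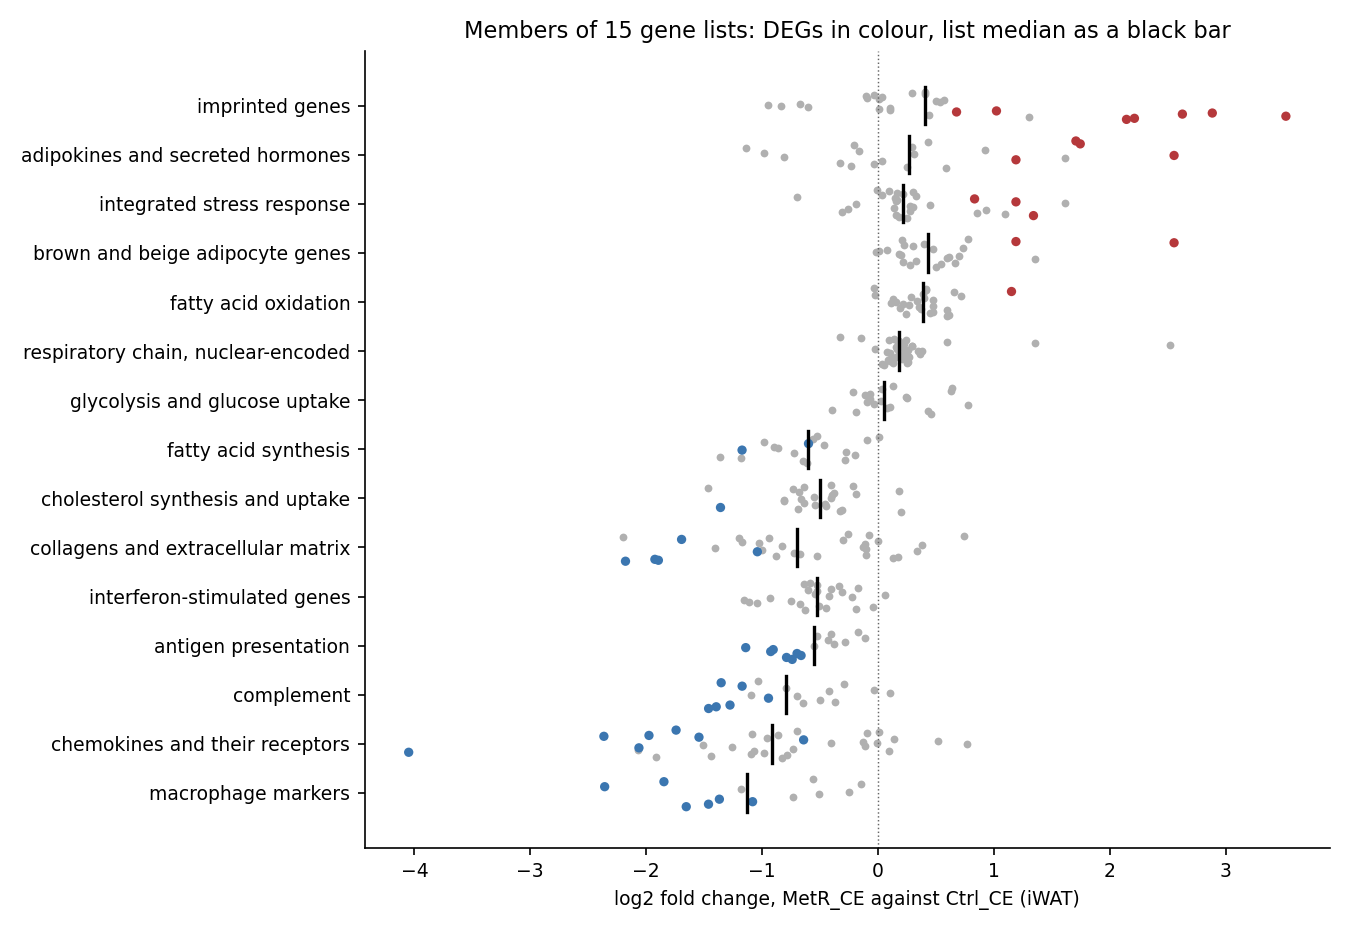
Log2 fold change of each gene of 15 lists in MetR_CE against Ctrl_CE, 1 point per gene, with DEGs in colour, other genes in grey and the list median as a black bar. Imprinted genes reach to the right with 7 DEGs, and macrophage, chemokine, complement and collagen genes lie mostly left of 0.

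The other lists held few or no DEGs, where 0.715% of all genes tested were higher and 1.55% lower. One of 17 genes of futile cycles other than UCP1 passed, the calcium release channel Ryr2 at 1.80 ± 0.435 (adjusted p = 0.0249), from medians of 0.185 and 0.605 CPM. None passed among 20 genes of beta-adrenergic signalling (median 0.09), 15 of triglyceride synthesis (-0.06), 17 of lipolysis and lipid droplets (0.26), 14 of lipid uptake (0.13), 18 of branched-chain amino acid breakdown (0.12), 19 clock genes (0.31), 18 heat shock and cold-inducible genes (-0.00) and 17 receptors for metabolites and hormones (0.45). In lipolysis and beta-adrenergic signalling, Cidec, which enlarges lipid droplets, and Pde3b, the cAMP phosphodiesterase through which insulin restrains lipolysis, had adjusted p-values of 0.0471 and 0.0316 but values of 0.45 and 0.48, under 1.5-fold.

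At room temperature the same diet contrast was larger. The cold groups ate the diets for an additional day. Temperature and time on the diet therefore cannot be told apart wherever the cold is set against RT. MetR_RT differed from Ctrl_RT in 3067 genes (11.6%), 1123 higher (4.25%) and 1944 lower (7.36%), and the contrast shares no library with the cold contrast. Of the 189 genes higher in the cold, 46 (24.3%) were also higher at RT and 0 lower, and of the 410 lower genes 69.8% were also lower and 4 genes higher. Their signs were the same at RT for 149 of the 189 higher genes (78.8%) and 365 of the 410 lower genes, against 64.5% of all genes with at least 1 CPM. The median log2 fold change of the lower genes was -1.29 in the cold and -1.23 at RT, and that of the higher genes 1.02 and 0.36. Both sets were chosen by their values in the cold, which enlarges the cold medians but not those at RT. These medians therefore do not measure a difference between temperatures. That difference was called for 23 of the 189 higher and 23 of the 410 lower genes. Macrophage markers, with medians of -1.13 in the cold and -1.12 at RT (10 of 12 lower there), and collagens, with -0.70 and -1.20 (22 of 30 lower there), were negative at both temperatures.

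Energy metabolism lists had larger medians at RT than in the cold. At RT 19 of the 24 brown and beige genes were higher, with a median of 1.65 against 0.43 in the cold. The corresponding values were 32 of 38 respiratory chain genes (0.92 against 0.19), 20 of 22 TCA cycle genes (0.98 against 0.21), 20 of 27 fatty acid oxidation genes (0.83 against 0.39) and 14 of 20 genes of glycolysis (0.93 against 0.06). Skeletal muscle markers were also positive in median at RT, at 1.74 with 1 of 10 genes higher. In the cold their median was 2.09, so it did not fall there as those of the energy lists did. The muscle marker sum was 28.3, 186.7 and 5520 CPM in Ctrl_RT and 143.2, 818.8 and 21300 CPM in MetR_RT, the last in MetR_RT 6. The part of muscle RNA in the RT values was not tested. Ucp1 had a log2 fold change of 3.61 at RT (adjusted p = 0.000683), where its median went from 72.4 CPM in Ctrl_RT to 1150 CPM in MetR_RT. The difference between its values in the cold and at RT was -3.11 ± 0.978 with an adjusted p of 0.0757.

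The difference between the diet effects, tested as an interaction in the same fit, was called for 435 genes, or 1.65%, 135 positive (0.511%) and 300 negative (1.14%), and 18.6% of genes had an unadjusted p below 0.05. Negative means that the diet effect in the cold was lower than at RT. The median values of the 300 genes were 0.72 at RT and -0.22 in the cold, and those of the 135 genes -0.74 and 0.38. Since the genes were chosen by this difference, a gap between the medians follows from the choice. Negative differences covered 7 of 24 cholesterol genes, 5 of 18 fatty acid synthesis genes, 7 of 22 TCA cycle genes, 7 of 20 glycolysis genes and 5 of 38 respiratory chain genes. Scd2 showed it plainly: at RT its median was 1090 CPM with the control diet and 1500 CPM with MetR, in the cold 1960 and 896 CPM, and the difference was -1.84 ± 0.388 (adjusted p = 0.0146). For Fasn the difference was -1.47 ± 0.378 (adjusted p = 0.034), which lost its call in 7 of the 13 leave-one-out fits. With DESeq2 and apeglm the Scd2 difference was set to 0.00, and with the optimizer nbinomC the Fasn difference was 0.63, of the opposite sign.

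Gypc, the glycophorin C of the membrane skeleton, had the smallest p of the negative differences. Its median was 47.4 CPM in Ctrl_RT and 62.7 CPM in MetR_RT, and in the cold it was 63.2 CPM in Ctrl_CE and 47 CPM in MetR_CE (-0.91 ± 0.118, adjusted p = 0.000762). Kmt5a, the histone H4 lysine 20 methyltransferase that uses S-adenosylmethionine, had medians of 152 CPM in Ctrl_RT and 206 CPM in MetR_RT, and of 246 CPM in Ctrl_CE and 170 CPM in MetR_CE (-0.94 ± 0.146, adjusted p = 0.0046). Odf3l1, Rab3a, a vesicle GTPase, and Ppp1r1a, an inhibitor of protein phosphatase 1, had differences of -1.39, -1.05 and -0.97 (adjusted p = 0.0046, 0.00688 and 0.00688). None of these 5 genes passed both thresholds in the cold by itself, and their differences were called in each of the 13 leave-one-out fits.

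Among the positive differences were 2 kinds of pattern. Il4ra, the interleukin-4 receptor, and Gnal, a stimulatory G protein subunit, were lower with MetR at RT (-1.31 and -2.32) and nearly level in the cold (-0.15 and 0.20), giving differences of 1.16 ± 0.186 and 2.52 ± 0.462 (adjusted p = 0.00528 and 0.00854). Peg3, Zim1, St6galnac5 and Vnn1 were called in the cold and not at RT. Peg3 had medians of 53.1, 39.9, 20.5 and 98.3 CPM in Ctrl_RT, MetR_RT, Ctrl_CE and MetR_CE, and its difference was 2.09 ± 0.432 (adjusted p = 0.0134). The order was the same for Zim1 (2.5, 2.26, 1.27 and 6.32 CPM), with a difference of 2.33 ± 0.418 (adjusted p = 0.00777). St6galnac5 differed by 1.47 ± 0.257 (adjusted p = 0.00688) and Vnn1 by 3.07 ± 0.569 (adjusted p = 0.00854). The Vnn1 difference exceeded its value of 2.12 in the cold, so its value at RT was negative. All 6 differences were called in each of the 13 leave-one-out fits, while DESeq2 with apeglm set those of Zim1 and Vnn1 to 0.00. Mest was also higher at RT (2.50, adjusted p = 0.0172). For Mest and Nnat the difference did not pass (1.02 ± 1.04 and 2.72 ± 0.905, adjusted p = 0.673 and 0.0925), nor did it for Trib3 (0.53 ± 0.322, adjusted p = 0.398).

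**Figure D4:**
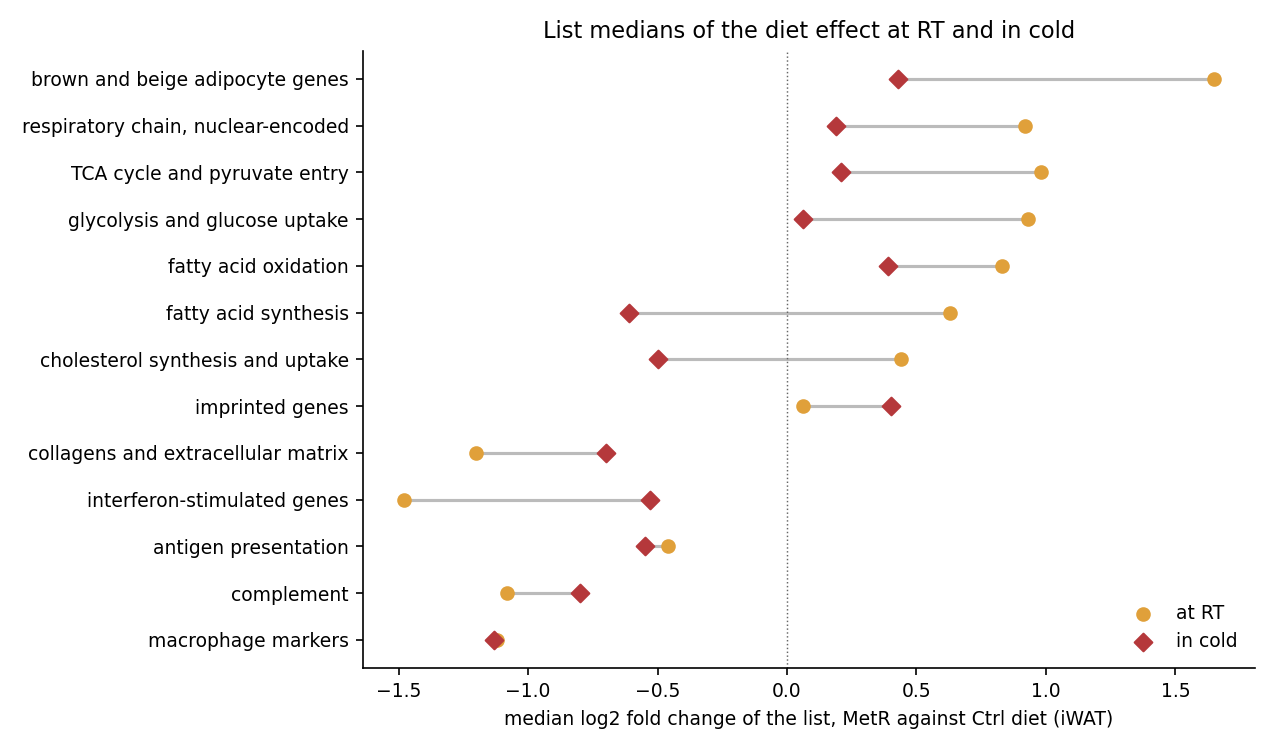
Median log2 fold change of 13 gene lists for MetR against the control diet in iWAT, with circles for 22 °C and diamonds for the cold. Brown and beige genes move from 1.65 to 0.43, fatty acid synthesis genes from 0.63 to -0.61, and macrophage markers lie at -1.12 and -1.13.

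The diet contrast in the cold was then set beside the other fat depots, which came from the same mice. The treatment tags of the iBAT libraries Ctrl_CE 1 and MetR_CE 1 name another group than their titles, and the titles were used here. The paper left out an iBAT Ctrl_CE library as an outlier without naming it, and all cold iBAT libraries were kept here. In iBAT, MetR_CE differed from Ctrl_CE in 164 of 25246 genes (0.65%; 0.198% higher and 0.452% lower), and in eWAT in 1223 of 27525 (4.44%; 1.89% higher and 2.55% lower). Of the 189 genes higher in iWAT, 106 were also higher in eWAT and 3 lower, against 2 higher and 0 lower in iBAT. Of the 410 lower genes, 77 were also lower in eWAT, and 27 of the 408 tested in iBAT. The signs matched those of iWAT for 85.7% of the higher genes in eWAT and 55.0% in iBAT, where the values over all genes with at least 1 CPM were 66.9% and 58.1%. For the lower genes they matched for 88.3% in eWAT and for 367 of 408 in iBAT.

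The difference between the diet effects of iWAT and iBAT was called for 299 genes (1.18%), 205 more positive (0.812%) and 94 more negative (0.372%) in iWAT. Without the pair of iBAT libraries whose tags and titles differ it was called for 228 genes, 194 of them among the 299. Peg3, Zim1, Mest and Nnat had differences of 1.80, 2.23, 3.65 and 2.61 (adjusted p = 0.00213, 0.00503, 0.00519 and 0.00138), and their own values in iBAT were 0.34, -0.02, -0.13 and 0.27. Shisa2, a modulator of WNT and FGF receptors, Ak1, an adenylate kinase, S100b, a calcium-binding protein induced in thermogenic fat, and Myo1c, a motor of GLUT4 vesicles, also differed (2.71, 1.49, 1.80 and 0.84, each with an adjusted p of 0.00118). S100b had medians of 4.27 and 13 CPM in the cold iWAT groups without overlap and means of 40.9 and 36.4 CPM in iBAT. In iWAT itself S100b was called higher in each of the 13 leave-one-out fits. On the other side stood Pth1r, the parathyroid hormone receptor (-1.53, adjusted p = 0.00146), Mvd (-1.30, adjusted p = 0.00191) and Rida (-0.74, adjusted p = 0.00217). Acly, with a value of 0.23 in iBAT, differed by -1.42 (adjusted p = 0.0174). These differences were called in each of the 20 fits that left out 1 library.

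Between iWAT and eWAT the diet effect differed in 69 genes (0.251%), 60 more positive (0.218%) and 9 more negative (0.0327%) in iWAT, and 7 of them were called in all 13 leave-one-out fits. The mouse as a random block in limma gave 88 genes, 62 of them among the 69, and the mouse as a fixed block in edgeR gave 30, of which 13 were. Among the 60 genes, Cox7a1 had values of 1.35 in iWAT and -1.18 in eWAT (difference 2.53 ± 0.44, adjusted p = 0.013), and Elovl3 values of 0.67 and -3.24 (3.90 ± 0.702, adjusted p = 0.0175). Gys2, the liver and fat form of glycogen synthase, was nearly level in iWAT (-0.24) and lower in eWAT (-2.63), a difference of 2.39 ± 0.397 (adjusted p = 0.0117). Ak1 differed by 1.37 ± 0.221 (adjusted p = 0.0114) and Adam12, a metalloprotease, by 1.42 ± 0.245 (adjusted p = 0.013). With the mouse as a fixed block the adjusted p was 0.0704 for Cox7a1, Elovl3 and Gys2, and with the mouse as a random block it was 0.0519 for Cox7a1 and 0.124 for Elovl3. The Adam12 difference lost its call without Ctrl_CE 1 (adjusted p = 0.0507) or MetR_CE 4 (adjusted p = 0.0503), and that of Elovl3 without Ctrl_CE 1 (adjusted p = 0.0507).

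In eWAT itself 14 of 18 fatty acid synthesis genes and 18 of 24 cholesterol genes were lower, with medians of -1.45 and -1.26 against -0.61 and -0.50 in iWAT. In neither list was the difference between the depots called for a gene, which does not show that the diet effects were equal. For the imprinted genes the eWAT values were like those of iWAT in sign, with 2.41 for Peg3, 2.88 for Zim1, 3.23 for Nnat and 1.98 for Mest, and 9 of the 27 genes were higher there. More negative in iWAT were Thbs2, a matrix thrombospondin (0.05 in iWAT and 3.06 in eWAT, adjusted p of the difference 0.00816), Il1rl1, the interleukin-33 receptor (-0.98 and 0.52, adjusted p = 0.0179), Als2cl (-0.70 and 0.11, adjusted p = 0.0275) and Plekhg6 (0.74 and 2.22, adjusted p = 0.0367). Thbs2 and Il1rl1 were called in each leave-one-out fit, whereas Als2cl lost its call in 3 and Plekhg6 in 9 of the 13. Fgf21 differed by 2.83 ± 0.567 (adjusted p = 0.0355), with values of 1.19 and -1.65, and lost its call in 7 of the 13.

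**Figure D5:**
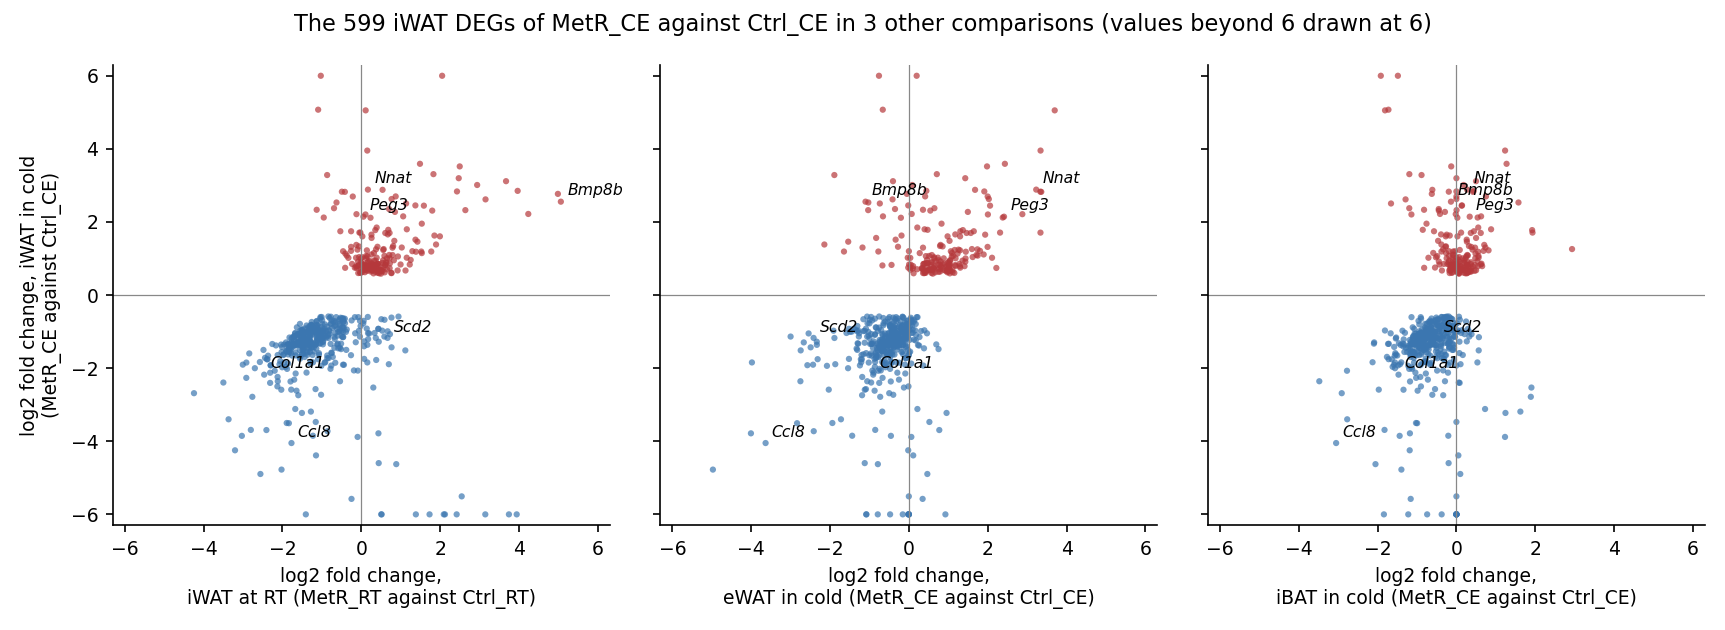
Log2 fold change in cold iWAT (vertical axis) of the 599 iWAT DEGs against their log2 fold change in iWAT at 22 °C, in cold eWAT and in cold iBAT (horizontal axes), 1 point per gene, with values beyond 6 drawn at 6. Peg3 and Nnat lie to the right of 0 in eWAT, at 2.41 and 3.23, and near 0 in iBAT and at 22 °C.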

How the data were processed

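Total RNA of each depot (RNA integrity number of 8.5 or more per the study's methods) was made into poly(A)-selected libraries with a kit that does not mark strand, and sequenced as paired-end reads. The deposited tables hold raw whole-number read counts per gene. The authors aligned reads with STAR 2.7.9a to mm10 and counted them with featureCounts 2.0.3, and in parallel ran Salmon 1.9.0 with tximport. Which of these made the deposited counts is not given in the sources used here, though the tables are named for Salmon, whose estimates would share reads among similar genes. The submitters' notes also name MultiQC 1.19 and DESeq2 1.46.0. Each column was matched to a sample by its name, and 0 columns stayed unmatched.

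From these counts, genes with at least 10 counts in total were kept, library sizes were scaled by the trimmed mean of M-values, and edgeR 4.0.16 in R 4.3.3 fitted quasi-likelihood models over the 4 iWAT groups, so that all groups shared the estimate of spread. The diet contrast in the cold, the same contrast at room temperature and their difference were tested two-sided with Benjamini-Hochberg adjustment, and a gene was called at an adjusted p below 0.05 and at least 1.5-fold. The depot differences came from joint fits of the cold iWAT libraries with those of iBAT or eWAT. SE is the log2 fold change divided by the square root of the F statistic. Each iWAT library came from its own mouse, and cage, day and litter were not given, so p-values cover the spread between these mice. The depots of 1 mouse are not independent, and the joint fits treated their libraries as if they were, except with the mouse as a block.

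Alternatives were other normalizations, filters, blocks and covariates, limma 3.58.1, DESeq2 1.42.0 with and without apeglm 1.24.0, and leaving out in turn each cold iWAT library and, against iBAT, each iBAT Ctrl_CE library, while no RT, iBAT MetR_CE or eWAT library was left out by itself. The fits with the muscle marker level, without Ctrl_CE 5 and Ctrl_CE 7 together, with the mouse as a fixed block and with other optimizers of apeglm were chosen after seeing the data. The members and the 47 gene lists were chosen with earlier results of these data known, and the lists of imprinted genes and of hair follicle keratins after their values here had been seen. Genes named were fixed sentinels, the 10 smallest p-values and 5 largest folds in each direction among DEGs with at least 1 CPM, up to 4 genes per list by p, and the leading genes of the difference tests. Other genes named, among them the further imprinted genes, were chosen after their values were seen. A few genes that this rule would name are not reported here. In simulated counts for the cold contrast (26411 genes), 70.1% of genes changed by 1.8-fold, 98.5% of those changed by 2.5-fold and 100% of those changed by 4-fold were called. The changed genes all had a mean of at least 1 CPM, and each gene's spread was the trend for its abundance. No simulated library deviated as some real ones did, so these shares do not give the power in the real data. Promoter windows and gene positions are those of RefSeq on GRCm38.p6, the assembly of mm10.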

Additional observations from a re-analysis of the deposited data

Results flagged for a closer look

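Single libraries lay far from the rest of their group for 27 of the 149 combinations of gene and cold group examined (Dixon's gap test at the 95% level). The 1 in 20 flagged at that level holds for normal and independent values. Here CPM were tested without a log and the genes share libraries, so the count cannot be set against that rate. In Ctrl_CE 4 the highest values were those of Dio2 (268.8 CPM), Adipoq (2100), Chac1 (15.1), Ivns1abp (204) and Zim1 (2.88), and its Copg2 level of 37.9 CPM was the lowest of the group. Ctrl_CE 5 held the highest Hspb7 (4.11), Krt25 (110), Krt83 (25.0), Prr9 (23.5), Krt33a (23.4) and Krt86 (17.7). Ctrl_CE 7 did so for Lacc1 (31.7) and Sfrp5 (14.7), Ctrl_CE 3 for Notch1 (77.4) and Mest (90.1), and Ctrl_CE 2 for Elovl3 (565). In the restricted group, MetR_CE 2 had the highest immune gene values, with Ciita at 5.19, Csf1r at 117, Mrc1 at 85.7, Mcpt4 at 8.23 and Cma1 at 7.58 CPM. MetR_CE 4 had the highest Cth (17.9), Stbd1 (17.8), Acot2 (396) and Slc4a1 (0.0887), and MetR_CE 1 the highest Elovl3 (730).

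The diet effect differed between the cold and room temperature by edgeR's interaction test for 15 named genes. On the log2 scale the difference (cold minus room temperature) was 1.16 for Il4ra, 1.47 for St6galnac5, 2.33 for Zim1, 2.52 for Gnal, 3.07 for Vnn1, 2.09 for Peg3 and 1.73 for Sfrp5. It was -0.91 for Gypc, -1.39 for Odf3l1, -0.94 for Kmt5a, -1.05 for Rab3a, -0.97 for Ppp1r1a, -1.84 for Scd2, -1.47 for Fasn and -1.47 for Gys2. The Sfrp5 difference was lost in 10 of the 13 leave-one-out fits and that of Fasn in 7.

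Between iWAT and iBAT the diet effect in the cold differed (iWAT minus iBAT) by 2.71 for Shisa2, 1.49 for Ak1, 0.84 for Myo1c, 1.80 for S100b, 2.61 for Nnat, 1.80 for Peg3, 3.65 for Mest and 2.23 for Zim1. It differed by -1.53 for Pth1r, -1.30 for Mvd, -0.74 for Rida and -1.42 for Acly. Between iWAT and eWAT it differed (iWAT minus eWAT) by 1.37 for Ak1, 2.39 for Gys2, 1.42 for Adam12, 2.53 for Cox7a1, 3.90 for Elovl3 and 2.83 for Fgf21, and by -3.01 for Thbs2, -1.51 for Il1rl1, -0.81 for Als2cl and -1.48 for Plekhg6.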

How the results depend on the processing

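The counts of called genes changed more with the processing than the direction of single genes. For the diet contrast in the cold (189 higher, 410 lower), testing against 1.5-fold with edgeR's glmTreat left 2 higher (0.00757% of the genes tested) and 0 lower genes (0%), where 5000 genes had an unadjusted p below 0.05 in the test against no change. The replicate block gave 221 lower (0.836%), the muscle marker level as a covariate 645 lower (2.44%), DESeq2 786 lower (2.97%), and leaving out Ctrl_CE 5 and Ctrl_CE 7 together 34 higher (0.131%) and 18 lower (0.0692%). Leaving out 1 library gave 0.217% to 0.919% higher and 78 to 590 genes (0.297% to 2.24%) lower, both lowest without MetR_CE 4 and highest without Ctrl_CE 4. For the difference between temperatures (135 positive, 300 negative), glmTreat left 0 and 0 (4921 genes had an unadjusted p below 0.05), the replicate block gave 229 positive, leaving out Ctrl_CE 5 and Ctrl_CE 7 gave 366 and 571, DESeq2 250 and 680, edgeR's filterByExpr 479 negative, apeglm shrinkage 141 negative (130 with the optimizer nbinomC, 311 with nbinomR), and leaving out 1 library 48 to 309 positive and 121 to 563 negative. The difference from iBAT (299 genes) ranged over 180 to 464 without 1 library. That from eWAT (69 genes) was 42 with size factors by relative log expression, 42 with filterByExpr, 22 with the replicate block, 30 with the mouse as a fixed block, and 7 to 116 without 1 library. The cause was not tested.

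Of 1898 alternative values for 77 named genes, 1537 kept their direction and side of the threshold, 336 lost the call, 17 gained one and 8 changed sign, and of the 58 called genes 2 kept the call in every alternative. The values that changed sign were those of Ppargc1a, Cth, Slc7a11, Fasn and Scd1, none of which was called in the cold. Ppargc1a was at -0.02 without Ctrl_CE 5 and Ctrl_CE 7. Cth was at -0.17 without MetR_CE 4, within -0.17 to 0.26 over the fits without 1 library. Slc7a11 ran from -0.21 to 0.28 over those fits, below 0 without Ctrl_CE 1, Ctrl_CE 2, Ctrl_CE 3 or MetR_CE 5. Fasn (0.51) and Scd1 (0.45) changed sign with apeglm's nbinomC, for which no posterior SD was given. With that optimizer the called difference of Fasn between temperatures also changed sign (0.63). Size factors by relative log expression moved the median of all genes from 0.0023 to -0.0133 for the contrast in the cold and from 0.0398 to 0.0073 for the difference between temperatures. Replicate numbers did not pair the cold libraries: the correlation of deviations in the 6 same-numbered pairs ran from -0.427 to 0.214, 2 of them were over 0.1, and 1 of the 6 MetR_CE libraries correlated best with its own number. Of simulated 1.8-fold changes, 70.1% were called in the cold contrast and 38.8% for the difference between temperatures. The simulated counts held no deviating libraries, so these shares do not give the power in the real data.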
